A study of Mus musculus with 12 samples.

Results

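The effect of CD200Fc on BV2 cells in high glucose was described by setting 3 RNA sequencing libraries of cells in high glucose with CD200Fc (HG+CD200Fc) against 3 libraries of cells in high glucose without it (HG). These 6 libraries, of 12 in the series, were chosen by the names of their count columns and by no measured value. CD200Fc joins the ligand CD200 to the Fc portion of an antibody and was given at 50 ng/mL. BV2 is an immortalised mouse microglial cell line, and no genetic change of the cells is named for any group. The other 6 libraries, 3 from normal glucose with CD200Fc (NG+CD200Fc) and 3 from normal glucose alone (NG), entered the same model and served to show where the response in high glucose differed. No group is labelled as having received a control Fc protein or an osmotic control. How much glucose was used, and for how long, is not stated. The source label names BV2 cells, but the treatment protocol of the labels describes dissected mouse retinas and sorting of GFP-positive cells. The labels do not say whether replicates were grown as separate cultures. The p-values therefore speak only of the spread between these libraries, part of which may be technical.

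CD200 is a membrane protein of neurons, endothelium and lymphocytes, and its receptor CD200R1 sits on myeloid cells such as microglia. The receptor carries no classical inhibitory motif. It recruits the adaptor Dok2 and through it the Ras GTPase-activating protein, which damps Ras and ERK signalling and with it myeloid activation. In brain and retina CD200 is known as a signal that keeps microglia quiescent.

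Each HG+CD200Fc library held 21454087 to 26922347 counts and each HG library 24992817 to 29161344. HG replicate 2 stood apart, with ribosomal RNA genes taking 1.53% of its counts, against 0.122% or less in the other 11 libraries. Counts that moved by more than 1.5 times when 1 library was left out are given beside the lists described. Of 8 tested nuclear noncoding and RNA quality genes 1 was lower and none higher. It was the abundant nuclear RNA *Malat1*, with 5589.9, 5431 and 5708 CPM in HG+CD200Fc and 7759.8, 9134 and 7920.1 in HG (-0.57 ± 0.057, edgeR adjusted p = 4.01e-08). *Malat1* moved with the immune genes described below, and the part of RNA quality in these results was not tested. The label was checked against markers. *Tmem119* (12.9 to 13.4 CPM in HG+CD200Fc, 12.9 to 16.7 in HG) was present. *P2ry12* had 14 to 70 reads in each of the 6 libraries and *Sall1* at most 1, although both mark microglia in tissue. Of the lists of markers for other cells, those for fibroblasts and epithelium summed to 1.68 to 2.34 CPM in HG+CD200Fc and 1.92 to 3.09 in HG, with 6 of 13 at 0 in all 6 libraries. Those for lymphocytes and granulocytes summed to 5.26 to 6.20 CPM in HG+CD200Fc and 5.73 to 7.60 in HG, with 4 of 18 at 0. Neuron markers summed to 37.0 to 39.2 CPM in HG+CD200Fc and 29.8 to 33.1 in HG, with 1 of 17, the photoreceptor factor gene *Crx*, at 0. Oligodendrocyte markers summed to 38.4 to 42.2 CPM in HG+CD200Fc and 45.4 to 51.7 in HG, with none of 11 at 0. The astrocyte and Mueller glia list summed to 1890 to 2080 CPM in HG+CD200Fc and 2180 to 2310 in HG, nearly all of it *Vim* and *Glul*, and none of 11 was at 0. Endothelial and mural cell markers, which hold *Flt1* and *Vwf*, summed to 471 to 518 CPM in HG+CD200Fc and 445 to 459 in HG, with 1 of 15, *Rgs5*, at 0. Of the neuron markers 15 of 17 stayed under 1 CPM in all 6 libraries, and of the oligodendrocyte markers 6 of 11. The same held for 6 of 11 astrocyte and Mueller glia markers and 7 of 15 endothelial and mural cell markers. It held for 11 of 13 fibroblast and epithelial markers and 14 of 18 lymphocyte and granulocyte markers. At the threshold given below, 1 of 5 tested neuron markers was higher, and of 8 oligodendrocyte markers 1 was higher and 1 lower. Of 10 endothelial and mural cell markers 1 was higher and 2 lower, and of 7 lymphocyte and granulocyte markers 1 was lower. No tested astrocyte and Mueller glia or fibroblast and epithelial marker passed. The part of other cells in the results was not tested.

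CD200Fc in high glucose changed many genes by small amounts. Levels are in CPM, counts scaled to a common library size with the trimmed mean of M-values, and are not corrected for gene length. The threshold for passing was an adjusted p of 0.05 in edgeR's quasi-likelihood test, adjusted over 19182 genes. HG+CD200Fc differed from HG in 3408 genes (17.8%), with 1815 higher (9.46%) and 1593 lower (8.3%). The median log2 fold change was 0.303 among those higher, -0.439 among those lower, and -0.0209 over all tested genes. The larger changes were mostly falls, with 44 genes (0.229%) at least 2-fold higher and 220 (1.15%) at least 2-fold lower. The 3 HG+CD200Fc libraries all lay above the 3 HG libraries in 2942 genes (15.3%) and all below in 3063 (16%).

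The receptor and its adaptors were looked at first. *Cd200r1*, the receptor gene (ENSMUSG00000022667, chromosome 16, 44765736 to 44794978, plus strand, GRCm38), stood at 12.7, 10.5 and 12.5 CPM in HG+CD200Fc libraries, against 14.2, 12.5 and 12.4 CPM in HG libraries. The groups overlapped, and the log2 fold change of -0.13 ± 0.13 (approximate SE from the model of 12 libraries, n = 3 each) did not pass (edgeR adjusted p = 0.584). The ligand gene *Cd200* was at 0 reads in each of the 12 libraries, whereas *Cd200r3* reached 42 when summed over them. *Cd200r4*, a related receptor that pairs with an activating adaptor in mouse, fell, at 15.8, 14.2 and 16.5 CPM in HG+CD200Fc and 22.04, 21.1 and 19.1 in HG (-0.42 ± 0.12, edgeR adjusted p = 0.0117). *Cd200r2* (-0.17) and the adaptor *Dok1* (-0.03) did not pass. Of 9 tested genes of the pathway 5 were higher and 1 lower, all by little: *Dok2*, the adaptor of CD200R1 (0.24 ± 0.070), *Rasa1*, which encodes the Ras GTPase-activating protein (0.23 ± 0.066), *Nf1*, another such protein (0.20 ± 0.065), *Dok3* (0.20 ± 0.066) and the lipid phosphatase *Inpp5d* (0.17 ± 0.055). *Dok2* had 37.7, 41.8 and 41.2 CPM in HG+CD200Fc and 33.2, 33.3 and 35.6 in HG, without overlap. The number of rises came down to 2 without HG replicate 3, and to 1 without HG replicate 1, HG+CD200Fc replicate 2 or HG+CD200Fc replicate 3. The fall of *Cd200r4* did not pass without HG replicate 1 or HG+CD200Fc replicate 2.

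Interferon-stimulated effector genes had the lowest median change of the 53 lists. The lists were chosen with earlier results of these data known, and no list was tested as a set. Type I interferon acts through a receptor pair and factors that include STAT2 and IRF9, which switch on antiviral effector genes through a promoter element with repeated GAAA. Among 67 tested effector genes 55 were lower in HG+CD200Fc and 1 higher, with a median log2 fold change of -0.792, against 8.3% lower and a median of -0.0209 over all tested genes. The 1 that rose was the DNA sensor *Cgas* (0.32 ± 0.074), named after its values were seen. The count higher was 2 without HG replicate 1 or HG+CD200Fc replicate 3. In bulk libraries fewer cells that express a gene and less RNA per cell cannot be told apart.

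The ligands were near 0: *Ifnb1* had 2, 2 and 4 reads in HG+CD200Fc and 2, 4 and 8 in HG, and *Ifng* 0 in all libraries. Of 21 tested receptors, factors and inhibitors of the pathway 7 were lower and 1 higher (median -0.16), and among the 4 tested receptor genes 1 was lower. None of the 21 was higher without HG replicate 2, HG replicate 3, HG+CD200Fc replicate 2 or HG+CD200Fc replicate 3. The factor gene *Irf7*, a master regulator of the response (ENSMUSG00000025498, chromosome 7, 141262706 to 141266481, minus strand), had 76.1, 71.6 and 73.7 CPM in HG+CD200Fc libraries, against 177, 163 and 159 in HG libraries. The 3 HG+CD200Fc values were alike and all well below the lowest HG value, at a log2 fold change of -1.17 ± 0.063 (edgeR adjusted p = 6.85e-13). *Stat2* (ENSMUSG00000040033, chromosome 10, 128270559 to 128292849, plus strand) had 39.6, 33.4 and 36.8 CPM in HG+CD200Fc and 73.4, 71.6 and 67.7 in HG (-0.95 ± 0.073).

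All 8 tested genes of the Ifit and Isg15 group were lower (median -1.23), as were 10 of 12 interferon-induced GTPases (median -0.968) and 31 of 38 other antiviral genes (median -0.659). *Ifit2*, whose product binds viral RNA, had 13.8, 12.0 and 11.5 CPM in HG+CD200Fc and 40.7, 41.2 and 32.9 in HG (-1.62 ± 0.11). *Ifit3* (ENSMUSG00000074896, chromosome 19, 34583531 to 34588731, plus strand) had 10.6, 10.6 and 10.95 CPM in HG+CD200Fc and 31.9, 31.6 and 24.2 in HG (-1.45 ± 0.12). HG replicate 3 was the lowest HG library for both genes and still stood far above each HG+CD200Fc library. *Ifit3* has a near-identical copy, so its count is uncertain. *Oasl2* (-1.37 ± 0.077), *Oas3* of the oligoadenylate synthetases (-0.68 ± 0.055) and *Usp18*, which removes ISG15 from proteins (-0.81 ± 0.081), fell as well. *Slfn4*, an interferon-induced gene of macrophages, had 89.7, 87.3 and 102 CPM in HG+CD200Fc and 209, 229 and 192 in HG (-1.17 ± 0.068). The nucleic acid sensor *Zbp1* (-2.08 ± 0.41) and the GTPase gene *Gbp4* (-1.75 ± 0.33), which has close relatives, were low, under 4 CPM in every library. *Apol9a* and *Apol9b*, near-identical neighbours whose reads can be split between them, fell by 2.07 and 2.19.

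Promoters are shown for *Ifit3* and *Oas3*, both lower in HG+CD200Fc, and for *B2m*, the light chain of MHC class I, because each holds the core of the interferon element, which is GAAA, any 2 bases and GAAA again, on either strand. Each window runs from 250 bases before to 50 bases after the start, 5′ to 3′ on the gene's strand (RefSeq, GRCm38.p6), with each match to the core in capitals. The windows are chr19:34583279-34583578 (plus) for *Ifit3*, chr5:120777610-120777909 (minus) for *Oas3* and chr2:122147437-122147736 (plus) for *B2m*.
Ifit3: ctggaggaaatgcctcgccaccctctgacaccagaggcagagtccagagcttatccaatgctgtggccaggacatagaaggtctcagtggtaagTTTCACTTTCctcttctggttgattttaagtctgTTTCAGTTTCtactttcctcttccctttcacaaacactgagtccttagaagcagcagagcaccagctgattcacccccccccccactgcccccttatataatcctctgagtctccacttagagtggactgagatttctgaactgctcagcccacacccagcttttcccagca
Oas3: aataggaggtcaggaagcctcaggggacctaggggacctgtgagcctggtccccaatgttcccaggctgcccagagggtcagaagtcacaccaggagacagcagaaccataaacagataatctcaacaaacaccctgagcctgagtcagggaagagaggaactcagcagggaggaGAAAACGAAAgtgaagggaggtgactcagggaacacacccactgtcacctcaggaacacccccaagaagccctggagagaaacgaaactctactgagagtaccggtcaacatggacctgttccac
B2m: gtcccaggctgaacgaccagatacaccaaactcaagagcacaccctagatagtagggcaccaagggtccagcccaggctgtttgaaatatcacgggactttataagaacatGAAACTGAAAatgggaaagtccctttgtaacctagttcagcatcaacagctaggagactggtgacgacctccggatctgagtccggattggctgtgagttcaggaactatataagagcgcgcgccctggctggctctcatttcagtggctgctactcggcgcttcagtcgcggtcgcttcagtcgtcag
*Ifit3* holds 2 matches, the first 156 bases before the start, *Oas3* 1 at 75 bases before it and *B2m* 1 at 139 bases before it. The core was found in 28 of the 50 interferon effector genes with a promoter in the table (56%), and in 5 of 22 antigen presentation genes (22.7%). It was found in 3.99% of all 27025 genes with such a window and in 4.01% of 9690 tested genes of at least 1 CPM. Among genes of at least 1 CPM with a promoter, 101 of 1165 lower in HG+CD200Fc held it (8.67%), 29 of 112 at least 2-fold lower (25.9%) and 37 of 1435 higher (2.58%). A match is a run of letters and not a site shown to be bound.

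Antigen presentation genes were lower too, 20 of 28 tested and none higher (median -0.494). MHC class I presents peptides that the immunoproteasome cuts and the TAP transporter carries. *B2m* (ENSMUSG00000060802, chromosome 2, 122147686 to 122153083, plus strand), whose promoter is printed above, had 374, 334 and 321 CPM in HG+CD200Fc and 568, 546 and 509 in HG. The groups stood well apart, at -0.66 ± 0.060. The peptide transporter *Tap1* had 29.4, 28.6 and 27.4 CPM in HG+CD200Fc and 55.5, 52.3 and 49.5 in HG (-0.88 ± 0.075). The immunoproteasome gene *Psmb9* (-0.85 ± 0.11) and the class I heavy chains *H2-K1* (-0.62 ± 0.059) and *H2-D1* (-0.52 ± 0.066) fell, and both heavy chain genes can share reads with related class I genes. *Cd74*, the class II invariant chain, had 31.4, 28.6 and 31.8 CPM in HG+CD200Fc and 50.1, 54.2 and 57.2 in HG (-0.81 ± 0.080). The class II chains themselves were near 0, with at most 3 reads of *H2-Ab1* and at most 4 of *H2-Eb1* in any library.

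Complement and Fc receptor genes fell in 18 of 28, with none higher (median -0.462). All 7 Fc receptor genes tested were lower, and 6 of 8 complement components. *C1qb*, a chain of the complement starter C1q (ENSMUSG00000036905, chromosome 4, 136880129 to 136886187, minus strand), had 22.8, 19.7 and 18.1 CPM in HG+CD200Fc and 54.4, 45.4 and 53.4 in HG (-1.33 ± 0.098). *C3*, the central component, had 264, 277 and 266 CPM in HG+CD200Fc and 421, 411 and 411 in HG (-0.62 ± 0.052). Neither gene overlapped between groups. *C1qc* (-0.92 ± 0.087), properdin *Cfp* (-0.78 ± 0.065), the activating Fc receptor *Fcgr4* (-0.78 ± 0.067) and the inhibitory *Fcgr2b* (-0.88 ± 0.090) fell. The 3 complement inhibitors tested did not pass.

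The list of receptors that inhibit myeloid cells, to which the CD200 receptor is related in function, was mostly lower as well. It also holds relatives of such receptors. Of 26 tested genes 13 were lower and 2 higher (median -0.201), and of the 21 receptors among them 12 were lower and none higher. *Pirb*, which binds MHC class I in mouse, had 8.22, 7.63 and 6.60 CPM in HG+CD200Fc and 23.6, 26.3 and 22.02 in HG (-1.68 ± 0.12, edgeR adjusted p = 1.45e-10). *Cd300lf* had 40.0, 42.9 and 41.4 CPM in HG+CD200Fc and 74.8, 79.8 and 75.5 in HG (-0.89 ± 0.071). *Pilra* (-1.20 ± 0.12), *Lilrb4a* (-0.75 ± 0.072), which has a close relative, and *Clec4a1* (-0.69 ± 0.069), a relative of inhibitory receptors, fell too. The 2 that rose, *Inpp5d* and *Ptpn11* (0.15), encode phosphatases that such receptors recruit, and *Ptpn11* was named after its values were seen. The count higher was 1 without HG replicate 2, HG+CD200Fc replicate 1 or HG+CD200Fc replicate 3, and 0 without HG replicate 3 or HG+CD200Fc replicate 2. Of the 5 phosphatases, 2 were higher and 1 lower with all libraries, and 1 higher and 2 lower without HG replicate 2.

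**Figure D1:**
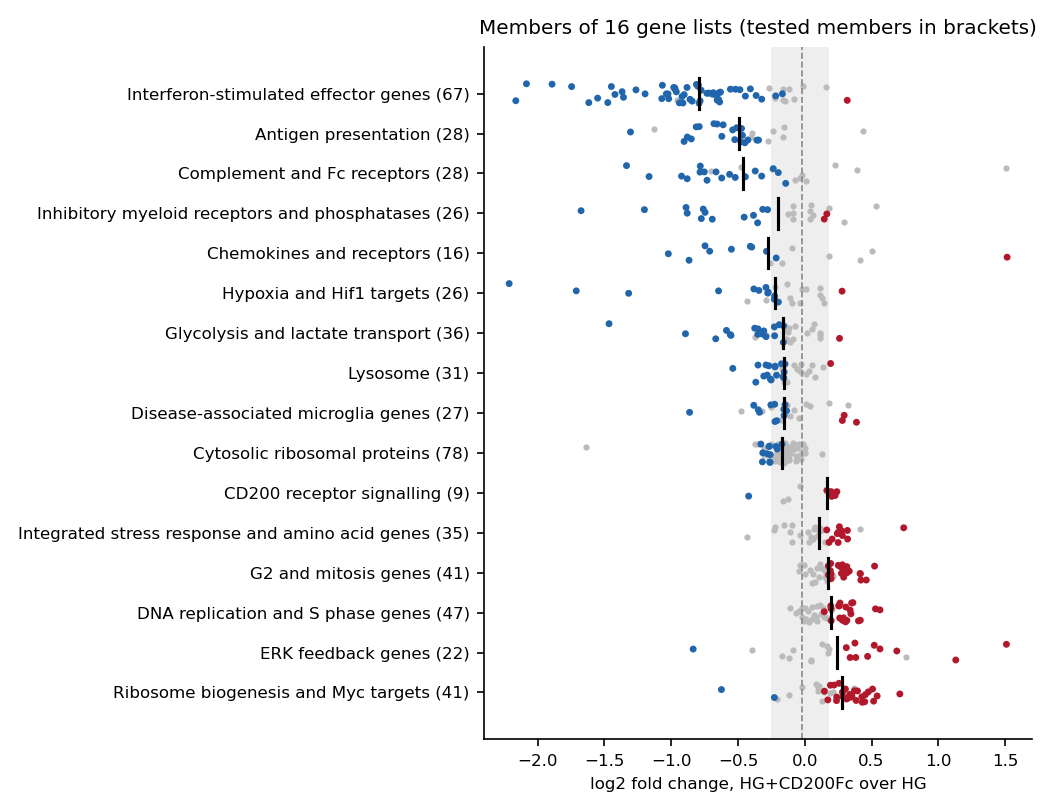
The log2 fold change of HG+CD200Fc over HG for each tested member of 16 gene lists, with the number tested in brackets. Points are genes, blue where lower and red where higher in HG+CD200Fc past the threshold, grey otherwise. Black bars are list medians, the dashed line is the median of all tested genes at -0.0209 and the grey band their middle 50% (-0.243 to 0.175). The interferon-stimulated list lies furthest left of the lists drawn (median -0.792), and ribosome biogenesis and Myc targets furthest right (0.282).

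Macrophage surface and granule genes were among those with the smallest p. *Mpeg1*, a pore-forming protein of phagosomes (ENSMUSG00000046805, chromosome 19, 12460779 to 12465283, plus strand), had 49.1, 51.9 and 45.9 CPM in HG+CD200Fc and 137, 129 and 125 in HG (-1.42 ± 0.074, edgeR adjusted p = 6.70e-13). *Marco*, a scavenger receptor (ENSMUSG00000026390, chromosome 1, 120474538 to 120505024, minus strand), had 315, 332 and 300.2 CPM in HG+CD200Fc and 683, 639 and 665 in HG (-1.07 ± 0.057, edgeR adjusted p = 6.70e-13). In both genes the lowest HG library stood far above the highest HG+CD200Fc library. *Adgre1*, which encodes F4/80 (-0.88 ± 0.060), *Ms4a7* (-1.08 ± 0.064), the lysozyme gene *Lyz2* (-0.86 ± 0.098), *Aif1*, which encodes Iba1 (-0.70 ± 0.070), and *Itgam*, which encodes CD11b (-0.56 ± 0.10), fell. Of 15 tested identity markers of microglia and macrophages 7 were lower and 1 higher, and the list of 16 summed to 6240 to 6700 CPM in HG+CD200Fc and 7990 to 9420 in HG. Without HG replicate 1, 2 of them were higher.

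Homeostatic microglia genes went both ways, with 4 of 21 lower and 4 higher (median 0.0739). The shares over all tested genes were 8.3% lower and 9.46% higher. *Cx3cr1*, the fractalkine receptor by which microglia sense neurons, had 3.29, 3.82 and 4.22 CPM in HG+CD200Fc and 1.44, 1.78 and 0.709 in HG. Each HG+CD200Fc library was above each HG library, at 1.51 ± 0.28 (edgeR adjusted p = 2.30e-04). The purine receptor *P2ry6* rose (0.50 ± 0.068), whereas *Fcrls* fell (-1.49 ± 0.21), at 2.35, 3.09 and 2.29 CPM in HG+CD200Fc and 7.97, 7.46 and 6.26 in HG. Of 27 disease-associated microglia genes 12 were lower and 3 higher (median -0.155). Lipoprotein lipase *Lpl* (0.39 ± 0.053) and the growth factor *Igf1* (0.28 ± 0.054) were 2 of those higher. The count of 12 came down to 5 without HG replicate 1 or HG+CD200Fc replicate 3, and to 6 and 7 without HG replicate 3 and HG+CD200Fc replicate 2.

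Cytokine genes themselves were mixed. Of 31 tested cytokines and receptors 8 were lower and 3 higher (median -0.0907). *Il1a*, the interleukin-1 alpha gene (ENSMUSG00000027399, chromosome 2, 129299610 to 129309972, minus strand), fell furthest of the genes given here, at -3.07 ± 0.43, and was low in every library. It stood at 0.598, 0.0966 and 0.183 CPM in HG+CD200Fc and 2.74, 2.46 and 2.68 in HG, without overlap (edgeR adjusted p = 8.39e-06). *Il1b* had 45, 51 and 42 reads in HG+CD200Fc and 92, 67 and 57 in HG and did not pass. These reads are not scaled to library size, and once scaled HG+CD200Fc replicate 2 lay above HG replicate 3, so the groups overlapped. *Tnf* had 133, 139 and 137 CPM in HG+CD200Fc and 149, 131 and 130.3 in HG, which overlapped, and did not pass either. Both of these were named after their values were seen. The interleukin-10 receptor chain *Il10ra* (-0.65 ± 0.065), the TNF receptor *Tnfrsf1b* (-0.54 ± 0.051) and the interleukin-1 antagonist *Il1rn* (-0.44 ± 0.064) fell, while *Tgfb1* (0.37 ± 0.067) and the interleukin-6 receptor *Il6ra* (0.42 ± 0.069) rose.

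Chemokine genes were lower in 9 of 16, and the 1 higher was *Cx3cr1* (median -0.274). Without HG replicate 1 the count of 9 came down to 5, and without HG replicate 3 the count higher was 2. *Ccl2*, which attracts monocytes, had 51.0, 51.3 and 51.0 CPM in HG+CD200Fc and 73.6, 64.1 and 65.7 in HG (-0.41 ± 0.065). The neutrophil attractant *Cxcl2* (-0.71 ± 0.099), *Ccl7* (-0.75 ± 0.12), *Ccl5* (-0.55 ± 0.13) and the decoy receptor *Ccrl2* (-1.02 ± 0.12) fell. Among 27 inflammatory enzymes and inflammasome genes 10 were lower and 2 higher (median -0.185), and 6 lower without HG replicate 1 or HG+CD200Fc replicate 3. The count higher was 1 without HG replicate 2 or HG+CD200Fc replicate 2. *Acod1*, which makes itaconate in activated macrophages, had 32.4, 27.1 and 29.1 CPM in HG+CD200Fc and 89.8, 72.2 and 75.6 in HG (-1.42 ± 0.093). *Nos2*, the inducible nitric oxide synthase gene, had 99.8, 101 and 103 CPM in HG+CD200Fc and 236, 181 and 202 in HG (-1.03 ± 0.10). HG replicate 1 was the highest library for both, and the groups did not overlap. The NADPH oxidase genes *Ncf4* (-0.46 ± 0.053) and *Cybb* (-0.25 ± 0.048) and the gelatinase gene *Mmp9* (-1.17 ± 0.078) fell. Of 28 NF-kB genes, 8 fell and 4 rose (median -0.15). The 4 became 2 without HG replicate 2 or HG+CD200Fc replicate 3, and 1 without HG replicate 1 or HG+CD200Fc replicate 2. Of 26 Toll-like receptor genes, 6 fell and none rose (median -0.0928). Over all tested genes 8.3% were lower and 9.46% higher.

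Genes that passed in the lists of Mondo sensors and targets and of glycolysis were mostly lower in HG+CD200Fc. Other lists of glucose use differed. Of 32 citrate cycle and glutamine genes 7 were higher and none lower. Of 17 pentose phosphate, polyol and hexosamine genes 3 were higher and 2 lower, beside 9.46% higher and 8.3% lower over all tested genes. Without HG replicate 2 these counts came to 6 higher and 2 lower, and to 0 higher and 1 lower. *Txnip*, which binds thioredoxin and lowers glucose uptake and is switched on by the Mondo glucose sensors (ENSMUSG00000038393, chromosome 3, 96557957 to 96561883, plus strand), had 128, 125 and 116 CPM in HG+CD200Fc and 193, 179 and 177 in HG. The 3 HG+CD200Fc libraries were all below the HG libraries, at -0.57 ± 0.061 (edgeR adjusted p = 1.23e-07). Its relative *Arrdc4* fell as well (-0.69 ± 0.11). Of 5 tested Mondo targets 4 were lower and none higher, and of 2 tested sensor genes 1 was higher. None of these 7 genes was higher without HG replicate 1, HG+CD200Fc replicate 2 or HG+CD200Fc replicate 3. Of 36 glycolysis and lactate genes 17 were lower and 1 higher (median -0.16). *Slc16a3*, which exports lactate from glycolytic cells (ENSMUSG00000025161, chromosome 11, 120948480 to 120960868, plus strand), had 12.3, 11.4 and 13.7 CPM in HG+CD200Fc and 39.9, 32.3 and 30.8 in HG (-1.47 ± 0.10). *Eno2* (-0.89 ± 0.070), *Aldoc* (-0.67 ± 0.079) and the hexose transporter *Slc2a6* (-0.59 ± 0.061) fell. The lactate carrier *Slc16a1* rose (0.26), and was named after its values were seen, as was *Hif1a* below.

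Hypoxia genes overlap with these in part. HIF1 is a transcription factor stabilised when oxygen is low, and it acts through ACGTG in promoters. Of 26 tested genes of the list 12 were lower and 1 higher (median -0.225), with 11 of the 20 targets lower and none higher. The 1 higher was lost without HG+CD200Fc replicate 2. *Hif1a* itself did not pass (0.01 ± 0.058). *Bnip3*, a mitophagy receptor (ENSMUSG00000078566, chromosome 7, 138890836 to 138909519, minus strand), had 2.17, 2.66 and 2.57 CPM in HG+CD200Fc and 8.25, 8.86 and 7.01 in HG (-1.71 ± 0.19). *Ndrg1* had 14.4, 11.2 and 11.1 CPM in HG+CD200Fc and 30.9, 30.5 and 30.8 in HG (-1.32 ± 0.11). Both genes were more than 2-fold lower with no overlap. *Ankrd37* (-2.21 ± 0.31), the *Bnip3* relative *Bnip3l* (-0.65 ± 0.077) and the angiogenic factor *Vegfa* (-0.34 ± 0.063) fell. The *Bnip3* promoter, chr7:138909457-138909756 (minus, GRCm38.p6), is shown because it holds ACGTG on both strands in 1 palindrome, in capitals, which also reads as the E-box CACGTG.
Bnip3: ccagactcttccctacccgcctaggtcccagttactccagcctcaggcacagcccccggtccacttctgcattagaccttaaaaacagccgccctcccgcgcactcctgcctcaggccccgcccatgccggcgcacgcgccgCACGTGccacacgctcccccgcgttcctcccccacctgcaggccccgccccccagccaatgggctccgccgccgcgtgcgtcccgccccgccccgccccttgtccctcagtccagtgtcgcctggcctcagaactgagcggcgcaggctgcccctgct
ACGTG was found in 15 of 21 hypoxia genes with a promoter (71.4%), in 21.8% of all promoters and in 29.6% of those of tested genes of at least 1 CPM. Among genes of at least 1 CPM with a promoter it was in 337 of 1165 lower in HG+CD200Fc (28.9%) and in 438 of 1435 higher (30.5%).

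Lysosomal genes fell in 17 of 31 with 1 higher (median -0.157). The change was small in most, and the count came down to 10 or 11 without HG replicate 1, HG replicate 3, HG+CD200Fc replicate 2 or HG+CD200Fc replicate 3. The count higher was 0 without HG replicate 2 or HG+CD200Fc replicate 2, and 2 without HG replicate 1. *Psap*, the precursor of saposins, had 1416, 1459 and 1394 CPM in HG+CD200Fc and 2088, 2036 and 2079 in HG (-0.54 ± 0.048). Cathepsin S, *Ctss* (-0.37 ± 0.061), and the membrane protein *Lamp2* (-0.35 ± 0.062) fell. Of lipid genes the phospholipid transfer protein *Pltp* (-0.90 ± 0.067), the cholesterol exporter *Abca1* (-0.54 ± 0.054) and the droplet protein *Plin2* (-0.51 ± 0.055) fell, whereas fatty acid synthase *Fasn* rose (0.57 ± 0.058).

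Targets of ERK signalling, the pathway that the receptor's adaptors are known to damp, rose in part. Of 22 tested genes 10 were higher and 1 lower (median 0.244), against 9.46% higher over all genes. *Epha2*, a receptor tyrosine kinase gene induced by ERK (ENSMUSG00000006445, chromosome 4, 141301240 to 141329384, plus strand), had 14.8, 15.9 and 16.5 CPM in HG+CD200Fc and 5.92, 6.10 and 4.53 in HG. The HG+CD200Fc libraries were alike and all far above the HG libraries, at 1.51 ± 0.14 (edgeR adjusted p = 2.09e-08). *Etv4*, an ETS factor gene, had 9.08, 8.31 and 9.62 CPM in HG+CD200Fc and 3.49, 4.66 and 4.22 in HG (1.13 ± 0.14). *Etv5* (0.52 ± 0.089), cyclin D1 *Ccnd1* (0.56 ± 0.067) and the ERK phosphatase *Dusp4* (0.38 ± 0.058) rose. The 1 that fell was *Ier3* (-0.84 ± 0.10), which NF-kB also induces. Of 25 immediate early and AP-1 genes 7 were higher and 1 lower (median 0.119), with 4 higher without HG replicate 3 or HG+CD200Fc replicate 2.

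The list of ribosome biogenesis and Myc targets had the most rises of the 53 lists, which were chosen with earlier results of these data known. Ribosome biogenesis is a main output of Myc, which binds CACGTG. Of 41 tested genes 27 were higher and 2 lower (median 0.282), with 22 of the 26 nucleolar genes higher and none lower. Of the 15 Myc target genes in the list 5 were higher and 2 lower. The 2 lower, *Mxd1* (-0.62), an antagonist of Myc, and *Ldha* (-0.23), a glycolysis gene, are not ribosome assembly factors and were named after their values were seen. The count lower was 1 without HG replicate 1, HG+CD200Fc replicate 1 or HG+CD200Fc replicate 2. *Mybbp1a*, a nucleolar protein gene (ENSMUSG00000040463, chromosome 11, 72441355 to 72451768, plus strand), had 744, 791 and 769 CPM in HG+CD200Fc and 540.3, 524 and 547 in HG (0.52 ± 0.050, edgeR adjusted p = 2.52e-08). *Cad*, which starts pyrimidine synthesis, had 881, 1024 and 992 CPM in HG+CD200Fc and 561, 597 and 611 in HG (0.71 ± 0.061). Neither gene overlapped between groups. Spermidine synthase *Srm* (0.54 ± 0.056) and the pseudouridine synthase *Dkc1* (0.48 ± 0.057) rose. The promoter of *Mybbp1a*, chr11:72441077-72441376 (plus, GRCm38.p6), is shown with its CACGTG in capitals, 40 bases after the start.
Mybbp1a: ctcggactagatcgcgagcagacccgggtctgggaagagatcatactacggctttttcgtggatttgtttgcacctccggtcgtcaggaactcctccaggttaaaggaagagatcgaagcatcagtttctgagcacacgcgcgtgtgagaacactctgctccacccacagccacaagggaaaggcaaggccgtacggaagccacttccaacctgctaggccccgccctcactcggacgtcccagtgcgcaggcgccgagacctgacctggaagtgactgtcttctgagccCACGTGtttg
The E-box CACGTG was in 13 of 34 genes of this list with a promoter (38.2%), in 8.09% of all promoters and in 11.8% of those of tested genes of at least 1 CPM. Among genes of at least 1 CPM with a promoter it was in 201 of 1435 higher (14%) and 122 of 1165 lower (10.5%) in HG+CD200Fc.

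Many cell cycle genes rose, by a log2 fold change of at most 0.563. Of 47 DNA replication and S phase genes 22 were higher (median 0.195), and of 41 G2 and mitosis genes 20 (median 0.177), and none was lower in either list. *Plk1*, the mitotic kinase gene (ENSMUSG00000030867, chromosome 7, 122159439 to 122169873, plus strand), had 188, 193 and 193 CPM in HG+CD200Fc and 137, 130 and 133 in HG, far apart for its spread (0.52 ± 0.054). *Mcm5*, a subunit of the replicative helicase, had 278, 309 and 288 CPM in HG+CD200Fc and 233, 205 and 224 in HG (0.40 ± 0.055). The licensing factor *Cdt1* (0.53 ± 0.066), cyclin D2 *Ccnd2* (0.42 ± 0.050), cyclin A2 *Ccna2* (0.41 ± 0.060), *Cdc20* (0.46 ± 0.060) and the proliferation marker *Mki67* (0.42 ± 0.062) rose. Of 57 replication-dependent histone genes, near-identical copies that can share reads, none passed in either direction with edgeR (4 at an unadjusted p under 0.05) or with DESeq2, and 1 did, as higher, with limma voom.

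Genes of amino acid supply rose in part, at the level of RNA. In the list of integrated stress response and amino acid genes 12 of 35 were higher and none lower (median 0.11). Of the 12 higher, 6 were among the 7 tested transporters. Without HG replicate 2 the count lower was 1. *Slc7a5*, the leucine transporter gene (ENSMUSG00000040010, chromosome 8, 121881150 to 121907694, minus strand), had 284, 312 and 303 CPM in HG+CD200Fc and 168, 185 and 184 in HG (0.74 ± 0.059, edgeR adjusted p = 9.44e-10). The serine enzyme gene *Shmt2* rose too (0.32 ± 0.054). Of 17 heat shock genes 7 were higher and none lower, led by *Bag3* (0.63 ± 0.10) and *Hsph1* (0.26 ± 0.050). The count lower was 1 without HG replicate 2. Of 23 p53 and apoptosis genes 9 were higher and 3 lower, with *Aen* at 0.54 ± 0.066. In the TGF-beta and BMP list 8 of 27 were higher and 2 lower, or 1 lower without HG replicate 3. *Id1*, a BMP target, had 27.9, 30.4 and 28.4 CPM in HG+CD200Fc and 16.5, 13.8 and 15.8 in HG (0.91 ± 0.089).

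Other lists went both ways or moved little. Of 28 Nrf2 antioxidant genes 8 were higher and 6 lower: the glutathione synthesis gene *Gclm* rose (0.53 ± 0.077), and the glutathione transferase *Gstm1* (-0.64 ± 0.077) and superoxide dismutase *Sod2* (-0.44 ± 0.066) fell. The count higher came to 5 without HG replicate 2, and the count lower to 4 without HG replicate 1 and to 3 without HG+CD200Fc replicate 2 or replicate 3. Over all tested genes 9.46% were higher and 8.3% lower. Nuclear genes of oxidative phosphorylation had 13 of 76 lower and 1 higher (median -0.142), and cytosolic ribosomal proteins 12 of 78 lower (median -0.168). Both counts hung on single libraries: without HG replicate 2 they came to 23 and 33, and without HG replicate 1 to 2 and 2. They came to 6 and 7 without HG replicate 3, to 5 and 4 without HG+CD200Fc replicate 2, and to 6 and 5 without HG+CD200Fc replicate 3. The 1 higher was lost without HG replicate 2, HG replicate 3, HG+CD200Fc replicate 2 or HG+CD200Fc replicate 3. Both lists had a median of -0.162 in the NG+CD200Fc over NG comparison as well, where none of their members passed. The median exon length was 1696 bases in the oxidative phosphorylation list and 1775 in the ribosomal protein list, and for the 14680 genes at 1 CPM or above, log2 fold change and exon length had a Spearman rho of 0.15 in high glucose and 0.268 in normal glucose, across genes that share libraries.

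The largest rises were mostly in genes of low level. *Dmpk*, the myotonic dystrophy kinase gene (ENSMUSG00000030409, chromosome 7, 19083849 to 19093821, plus strand), had 21.1, 32.9 and 22.045 CPM in HG+CD200Fc and 3.70, 3.98 and 4.61 in HG (2.63 ± 0.36, edgeR adjusted p = 0.00103). *Ube2cbp* (1.31 ± 0.28), *Tbr1* (1.30 ± 0.34), the potassium channel *Kcna3* (1.15 ± 0.27) and the potassium channel *Kcnh2* (1.07 ± 0.33) rose. *Kcnh2* lost its call without HG replicate 2, HG replicate 3 or HG+CD200Fc replicate 2. At higher levels the VEGF receptor *Flt1* had 275, 319 and 308 CPM in HG+CD200Fc and 161, 158 and 167 in HG (0.89 ± 0.063, edgeR adjusted p = 1.15e-10). The Notch ligand *Jag1* (0.89 ± 0.084) and *Efr3b*, which anchors a lipid kinase at the membrane (0.83 ± 0.073), rose, while *Vwf* fell (-0.50 ± 0.053). Besides those given above, *Abcc6* (-2.03 ± 0.35), *Cd4* (-1.82 ± 0.35), the endocytic receptor *Ly75* (-1.72 ± 0.41), *Mturn* (-1.69 ± 0.31) and *Crybg2* (-1.64 ± 0.30) fell, each under 5 CPM.

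**Figure D2:**
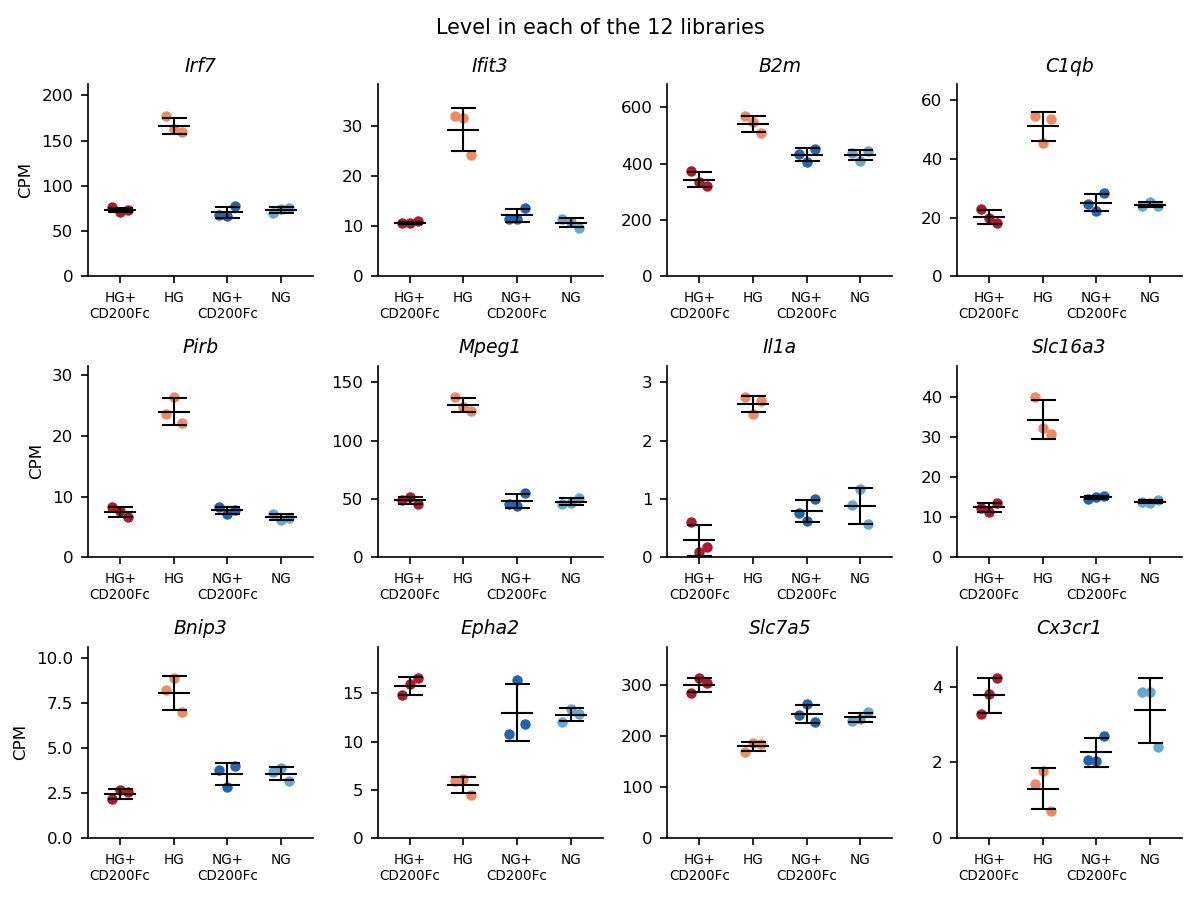
CPM of 12 genes in each library, with the groups HG+CD200Fc, HG, NG+CD200Fc and NG from left to right and each axis starting at 0. Points are libraries, bars the mean and whiskers the SD of 3 libraries. In the first 9 panels the HG libraries stand above those of the other 3 groups, and in *Epha2*, *Slc7a5* and *Cx3cr1* the HG+CD200Fc libraries stand above the HG libraries.

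The same comparison in normal glucose gave no call. In NG+CD200Fc against NG 0 of 19182 genes passed with edgeR (0%; 1147 at an unadjusted p under 0.05), 0 with DESeq2 and 1 with limma voom, and the smallest edgeR adjusted p was 0.816. The difference between the effects was tested as an interaction, which uses the same HG and HG+CD200Fc libraries as above. It passed in 1381 genes (7.2%), in 694 with a higher effect in high glucose and in 687 with a lower one. *Irf7* had 68.1, 66.4 and 77.4 CPM in NG+CD200Fc and 70.0, 74.6 and 75.8 in NG, which overlapped (-0.06), and its interaction was -1.12 (edgeR adjusted p = 8.44e-09). *Marco* had an interaction of -1.18 and *Mpeg1* of -1.43, and *Epha2* one of 1.49. Of the 67 interferon effector genes 45 passed the interaction, all as lower, and their median effect in normal glucose was -0.0172. Of the 41 ribosome biogenesis and Myc target genes 23 passed, all as higher, with a median effect in normal glucose of -0.0247. None of the 9 CD200 pathway genes passed the interaction. The background for these counts is 3.58% of all genes lower and 3.62% higher.

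**Figure D3:**
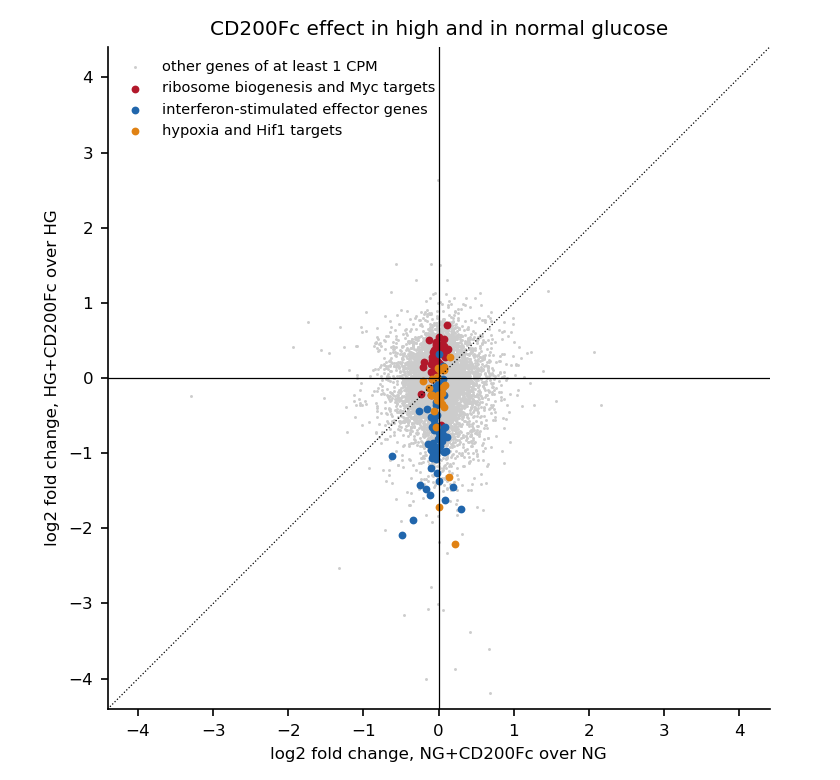
Genes at a mean of 1 CPM or more, drawn by the log2 fold change of NG+CD200Fc over NG (horizontal) against that of HG+CD200Fc over HG (vertical). Points are genes, blue for interferon-stimulated effector genes, red for ribosome biogenesis and Myc targets, orange for hypoxia and Hif1 targets and grey for the rest, and the dotted line marks equal effects. The blue points spread downwards (median -0.792 in high glucose) while staying near 0 in normal glucose (median -0.0172).

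Levels in high glucose with CD200Fc can be set beside those without CD200Fc at both glucose levels, as values only, since the HG libraries are shared between the comparisons. *Irf7* averaged 73.8 ± 2.24 CPM in HG+CD200Fc, 166 ± 9.02 in HG and 73.5 ± 3.05 in NG (SD, n = 3 each). *Txnip* averaged 123 ± 5.90 CPM in HG+CD200Fc, 183 ± 8.39 in HG and 102 ± 8.09 in NG. *Pirb* averaged 7.48 ± 0.821 CPM in HG+CD200Fc, 24.0 ± 2.16 in HG and 6.59 ± 0.512 in NG. *B2m*, at 343 ± 27.5 CPM in HG+CD200Fc, lay below both HG (541 ± 29.6) and NG (431 ± 18.0) in each library, while *Slc7a5*, at 299.6 ± 14.3, lay above both HG (179 ± 9.47) and NG (236 ± 8.82).

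In the authors' deposited table of the same comparison 3475 of 15372 genes passed a false discovery rate of 0.05, 1770 higher and 1705 lower in HG+CD200Fc. Of 14517 genes matched by symbol and tested here, 3126 passed in both, all with the same sign. They were 92.8% of the calls in the authors' deposited table and 95.2% of the calls made here among the matched genes. Both rest on the same counts.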

How the data were processed

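RNA of 12 libraries, with BV2 cells named in the source label, was sequenced. Per the submitters' processing notes, the tools were STAR, featureCounts of Subread, Salmon, limma, edgeR and bcl2fastq, with the build GRCm38, and whether counting used strand is not given in the sources used here. The deposited table holds raw counts per gene made by the authors. The authors' deposited table of the same comparison holds log2 fold changes with p-values, and was used only to set its calls beside those made here.

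Of 55774 lines, 287 that repeated a gene ID with the same counts were dropped, which left 55487 IDs. R 4.3.3 and edgeR 4.0.16 were used. Genes passing filterByExpr (19182) were scaled by the trimmed mean of M-values and fitted with 4 group means over 12 libraries (robust quasi-likelihood). Contrasts were HG+CD200Fc minus HG, NG+CD200Fc minus NG and their difference, with Benjamini-Hochberg adjustment over all tested genes. The value after ± beside a log2 fold change is an approximate SE. It is the absolute log2 fold change divided by the square root of the quasi-likelihood F, from the model of 12 libraries. Alternatives used DESeq2 1.42.0, limma 3.58.1, other scalings and filters, a replicate block and leaving out single libraries. On counts simulated for HG+CD200Fc against HG, 35.8% of genes changed 1.25-fold, 65.7% changed 1.5-fold and 80.3% changed 2-fold were recovered. There were 10 false calls among 18534 unchanged genes. The changed genes were drawn only from those of at least 1 CPM. For the interaction 7.46%, 41.8% and 59.1% of the same genes were recovered, with 8 false calls.

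The 53 gene lists were chosen with earlier results of these data known. Of their 1562 names, 1561 matched and 1389 were tested. Genes were named by rule: the 15 largest changes and the 10 smallest p in each direction among those without overlap at 1 CPM or more, up to 6 members of each list by p, and the genes of the CD200 receptor and *Txnip*. Replicates of HG and of HG+CD200Fc differed beyond sampling noise, and each counted as 1. Sequences are from RefSeq tables. Motifs were searched on both strands, and CACGTG contains ACGTG. Some genes that the naming rule picked are not reported here.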

Additional observations from a re-analysis of the deposited data

Results flagged for a closer look

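The effect of CD200Fc was set between the glucose levels by a test of the difference itself, the interaction term of the edgeR model, and 1381 genes passed at an adjusted p under 0.05. They were 7.2% of all genes tested. Of the genes named here 116 passed. Named genes were picked largely by their p or fold change in HG+CD200Fc against HG. The interaction contains that comparison, so the number of named genes passing is no separate evidence. Values are log2 fold changes in high glucose minus those in normal glucose, from the same HG+CD200Fc and HG libraries as the report, with 3 libraries in each of the 4 groups.

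The effect was lower in high glucose in 79 of them. The largest such differences were in *Il1a* (-2.93), *Ankrd37* (-2.43), *Apol9a* (-2.39), *Ly75* (-2.23), *Apol9b* (-2.20), *Cd4* (-2.06), *Gbp4* (-2.05), *Pirb* (-1.91), *Crybg2* (-1.78), *Fcrls* (-1.73), *Bnip3* (-1.71), *Ifit2* (-1.70), *Ifit3* (-1.65) and *Slc16a3* (-1.57). Then came *Ndrg1* (-1.46), *Mpeg1* (-1.43), *Acod1* (-1.38), *C1qb* (-1.38), *Oasl2* (-1.37), *Cysltr1* (-1.34), *Pilra* (-1.22), *Marco* (-1.18), *Slfn4* (-1.18), *Mmp9* (-1.14), *Irf7* (-1.12), *Stat2* (-1.03) and *Eno2* (-1.01). Smaller differences were in *Ms4a7* (-0.98), *Cd300lf* (-0.97), *Pltp* (-0.96), *Nos2* (-0.93), *Tap1* (-0.92), *Lilrb4a* (-0.91), *Fcgr2b* (-0.88), *Psmb9* (-0.86), *Ccrl2* (-0.85), *Cd74* (-0.84), *Ier3* (-0.82), *Adgre1* (-0.81), *Ccl7* (-0.80) and *Cxcl2* (-0.78). After these came *Cfp* (-0.77), *Fcgr4* (-0.76), *Arrdc4* (-0.74), *C1qc* (-0.73), *Oas3* (-0.73), *Clec4a1* (-0.72), *Gstm1* (-0.72), *Aif1* (-0.69), *Mrc1* (-0.68), *Usp18* (-0.68), *Il10ra* (-0.68), *Lyz2* (-0.66), *B2m* (-0.66) and *Aldoc* (-0.66). Next were *Abca1* (-0.64), *C3* (-0.64), *Tnfrsf1b* (-0.63), *Vwf* (-0.62), *Bnip3l* (-0.61), *H2-K1* (-0.60), *Itgam* (-0.58), *Psap* (-0.58), *Slc2a6* (-0.57), *Malat1* (-0.57), *Txnip* (-0.52), *Plin2* (-0.51), *H2-D1* (-0.49) and *Ncf4* (-0.45). The smallest were in *Selplg* (-0.42), *Pdia4* (-0.41), *Vegfa* (-0.39), *Sod2* (-0.36), *S1pr2* (-0.36), *Ccl2* (-0.32), *Lamp2* (-0.32), *Pdia6* (-0.32), *Il1rn* (-0.29) and *Cybb* (-0.25).

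The effect was higher in high glucose in 37. The largest such values were in *Dmpk* (2.64), *Cx3cr1* (2.08), *Kcna3* (1.79), *Ube2cbp* (1.60), *Epha2* (1.49), *Etv4* (1.18), *Id1* (1.07), *Flt1* (0.91), *Jag1* (0.82), *Gclm* (0.71), *Slc7a5* (0.70), *Efr3b* (0.70), *P2ry6* (0.66) and *Aen* (0.62). Smaller ones were in *Cad* (0.60), *Ccnd1* (0.55), *Srm* (0.54), *Plk1* (0.54), *Cdc20* (0.53), *Dkc1* (0.52), *Bag3* (0.51), *Ccna2* (0.49), *Cdt1* (0.48), *Mybbp1a* (0.45), *Fasn* (0.45), *Mcm5* (0.44), *Itga4* (0.41) and *Shmt2* (0.40). Below these were *Etv5* (0.40), *Dusp4* (0.39), *Orai2* (0.39), *Slc16a1* (0.39), *Ccnd2* (0.38), *Lpl* (0.37), *Il6ra* (0.32), *Mki67* (0.32) and *Igf1* (0.31).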

How the results depend on the processing

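The number of genes that passed between HG+CD200Fc and HG was 3408, and stayed within 1.5 times of that under the alternatives run. It was 3695 with DESeq2, 3893 with limma voom, 3132 with only the 6 libraries compared, and 2473 to 3158 when 1 library was left out. Of the 3408 genes, 69.7 to 82.9% passed again with a library left out and 97.8% with DESeq2, and none passed with the opposite sign under any alternative. The share of calls that were higher ran to 49.5% without HG replicate 2, against 53.3% with all libraries. Same-numbered libraries of both groups showed no clear pairing. Their deviations correlated at 0.0285, 0.00446 and -0.0316, and replicate 1 alone correlated best with its own number. With 3 libraries a group, such correlations cannot settle whether the libraries were paired. With the replicate number as a block 3842 genes passed, 99.6% of the 3408 among them. With the block, the count of cytosolic ribosomal protein genes that were lower came to 30, against 12 in the report. It was 33 without a filter and 20 with limma voom or with only the 6 libraries, and for oxidative phosphorylation it was 22 without a filter, against 13. With DESeq2 size factors 7 disease-associated microglia genes were lower, against 12. Of 272 genes under the naming rule that passed, at most 28 lost their call under a setting, which was the case without HG replicate 1 or HG+CD200Fc replicate 2. No named gene changed sign as a call. The cause of these shifts was not tested. Small changes may have been missed with 3 libraries a group.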

Other observations

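Some receptor and channel genes not described above also passed. Of 21 tested ion channel genes 9 were higher and 1 lower in HG+CD200Fc (median log2 fold change 0.168), with 6 higher without HG replicate 2 or HG+CD200Fc replicate 2. The mechanosensitive channel gene *Piezo1* (0.38 ± 0.065) and the store-operated calcium channel gene *Orai2* (0.30 ± 0.071) were among those higher. Of 21 receptors for purines, metabolites and prostanoids 5 were lower and 2 higher, and 3 of the 6 lipid receptors were lower. The count higher was 1 without HG replicate 2 or HG+CD200Fc replicate 2. The leukotriene receptor *Cysltr1* (-1.18 ± 0.22) and the sphingosine-1-phosphate receptor *S1pr2* (-0.54 ± 0.067) fell.

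Among 23 genes of the unfolded protein response and chaperones 7 were lower and 1 higher (median -0.142), and 4 were lower without HG replicate 1, HG+CD200Fc replicate 2 or HG+CD200Fc replicate 3. The disulfide isomerase genes *Pdia4* (-0.44 ± 0.063) and *Pdia6* (-0.38 ± 0.060) fell. Among 18 adhesion and migration receptors 6 were lower and 4 higher, and without HG replicate 1 or HG replicate 3 the count lower came to 3 and 4. The integrin gene *Itga4* rose (0.40 ± 0.053), and *Selplg*, the selectin ligand gene, fell (-0.49 ± 0.060). The mannose receptor *Mrc1*, a marker of alternative activation, had 66.0, 52.8 and 55.7 CPM in HG+CD200Fc and 84.0, 95.5 and 87.4 in HG (-0.61 ± 0.072).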
